A study of Mus musculus with 12 samples.

Results

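The genes described here are the NF-kB family of the mouse and the proteins that bind it: the 5 subunits Nfkb1, Nfkb2, Rel, Rela and Relb, the 3 classical inhibitors Nfkbia, Nfkbib and Nfkbie, and the 2 nuclear IkB proteins Nfkbiz and Bcl3. The 10 genes were listed by symbol and looked up in an expression comparison of 27013 genes, in a list of 10290 N6-methyladenosine (m6A) peaks and in a list of 17843 YTHDF2 peaks. All 10 stood in the expression comparison and all 10 were among its 10778 genes with an adjusted p. The list of m6A peaks named 5 of them, and the list of YTHDF2 peaks named all 10.

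The study took bone marrow from C57BL/6 mice, grew macrophages from it for 7 days with 20 ng/ml M-CSF, and drove them to the inflammatory M1 state with 100 ng/ml LPS and 20 ng/ml IFN-γ for 24 h. It used macrophages with a conditional knockout of Ythdf2 (Ythdf2 cKO) and wild-type (WT) macrophages, all of them stimulated, so every group shares the LPS and IFN-γ and no resting macrophages were analysed here. There were 12 libraries in 6 groups of 2: m6A immunoprecipitates and their inputs from Ythdf2 cKO cells, the same pair of groups from WT cells, and a YTHDF2 immunoprecipitate with its input from WT cells only. The m6A immunoprecipitates of Ythdf2 cKO cells were not analysed here. The driver of the conditional deletion, the age and sex of the mice, and whether the 2 libraries of a group came from separate mice are not given in the sources used here, so errors measure only the spread between libraries, which may be technical.

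NF-kB is a family of dimeric transcription factors that macrophages keep ready in the cytoplasm, held there by the IkB proteins. LPS acts through the receptor TLR4 to activate the IkB kinase complex, the kinase marks IkB for degradation, and the freed dimers enter the nucleus and switch on cytokine, chemokine and survival genes. Several of the genes they switch on encode IkB proteins and NF-kB subunits themselves, which closes a feedback loop. m6A is a methyl mark placed on adenosines of mRNA, often near the stop codon and in the 3′ UTR, and YTHDF2 is a cytoplasmic reader of that mark that promotes the decay of the RNAs it binds.

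The stretches below come from the start regions of these genes and are shown because each carries a match to the kappaB consensus, the DNA word that NF-kB dimers recognise. RefSeq start regions of the GRCm38.p6 build, 250 bases before to 50 bases after an annotated start, were held for 7 of the 10 genes. Of those 7 genes, 5 had at least 1 match on either strand, against 5.14% of 27025 genes with such a region. Each stretch is 30 bases of the gene's own strand, written 5′ to 3′, with the 10 matching bases in capitals.
Nfkb2, plus strand, chr19:46304688-46304717: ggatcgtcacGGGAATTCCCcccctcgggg
Nfkb2, plus strand, a second start, chr19:46305695-46305724: tggtattttcGGGACTTTCCtaagcagcac
Rel, minus strand, chr11:23771042-23771071: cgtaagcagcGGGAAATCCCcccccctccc
Nfkbia, minus strand, chr12:55492657-55492686: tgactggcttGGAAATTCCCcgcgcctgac
Nfkbie, plus strand, chr17:45555584-45555613: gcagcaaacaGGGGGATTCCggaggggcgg
Bcl3, minus strand, chr7:19822734-19822763: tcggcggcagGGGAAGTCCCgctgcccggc
The regions of Rela and Nfkbib held no match, which says only that these letters are not in those windows. Overlapping matches and the other matches of Nfkb2 are not printed. A match is a description of sequence and does not show that a dimer was bound there.

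The comparison between genotypes was deposited as 1 row per gene, with a mean normalized count over the libraries, a log2 fold change, its standard error (SE), a Wald p and an adjusted p. Values of single libraries were not analysed here, so neither a level in each genotype nor the depth of a library is given, and since means are not scaled to length, a mean stands for the reads behind a gene's value and not for its transcript level against another gene. The column names do not say which genotype is the numerator. In the authors' deposited table the deleted gene, Ythdf2, had a mean of 1762 normalized counts, and its log2 fold change was 1.10 ± 0.16 (SE; Wald test, adjusted p = 2.1e-09). A positive value below therefore lies on the side of Ythdf2 and a negative value on the opposite side, and no direction from one genotype to the other is drawn. Intervals are 95% intervals, the log2 fold change ± 1.96 SE. In such bulk RNA, fewer cells of a type and less RNA per cell cannot be told apart.

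Among the genes of the family, 0 of 10 passed an adjusted p under 0.05 in the authors' deposited table, where 250 of all 10778 tested genes did (2.32%), 190 with positive values (1.76%) and 60 with negative values (0.557%). Without adjustment, 1 of the 10 (Nfkbib) was under 0.05, against 1077 of all tested genes (9.99%). The family's members had means of 894 to 12663 normalized counts, more reads than for 55.3% to 97.2% of the tested genes. Of the 10 log2 fold changes in the authors' deposited table, 7 were positive and 3 negative, with a median of 0.14, where 48.7% of all tested genes were positive and their median was -0.01. The median absolute log2 fold change was 0.17 in the family and 0.13 over all tested genes. For 8 of the 10 the 95% interval lay within a 1.5-fold difference either way, and Nfkbib and Nfkbiz were the exceptions.

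**Figure D1:**
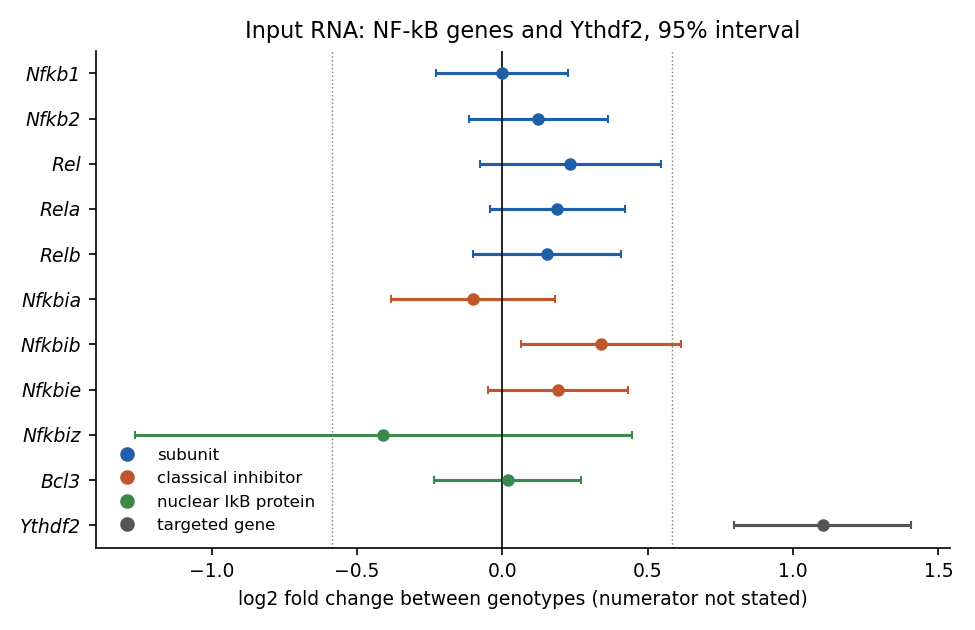
Log2 fold change between genotypes (x axis, positive on the side of Ythdf2) of the 10 NF-kB genes and Ythdf2, from the deposited comparison, coloured by role, with bars for the 95% interval and dotted lines at a 1.5-fold difference. The intervals of Ythdf2 (0.80 to 1.41) and Nfkbib (0.06 to 0.61) lie above 0, and those of the other 9 genes hold 0, with Nfkbiz by far the widest.

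None of the 5 subunits passed the test between genotypes, and all 5 intervals lay within a 1.5-fold difference either way. Nfkb1 and Nfkb2 encode the precursors p105 and p100, which are processed to the DNA-binding subunits p50 and p52. Nfkb1 (chr3:135584655-135691969, mm10) had a mean of 4193 normalized counts and a log2 fold change of -0.00 ± 0.12 (SE; interval -0.23 to 0.23; adjusted p = 1.00, Wald test) in the authors' deposited table. Nfkb2 (chr19:46300994-46312400) had a mean of 3795 and a log2 fold change of 0.12 ± 0.12 (interval -0.12 to 0.36; adjusted p = 0.899, Wald test) in the authors' deposited table. Neither value was farther from 0 than about 1 SE.

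Rela, Rel and Relb are the subunits with a transactivation domain. Rela encodes p65, the partner of p50 in the dimer that responds first to LPS. Rela (chr19:5637442-5648134) had a mean of 3201 normalized counts and a log2 fold change of 0.19 ± 0.12 (interval -0.04 to 0.42; adjusted p = 0.681, Wald test) in the authors' deposited table. Rel, which encodes c-Rel and lies at chr11:23736847-23770969, had a mean of 894 and a log2 fold change of 0.23 ± 0.16 (interval -0.08 to 0.54; adjusted p = 0.751, Wald test) in the authors' deposited table. Relb, the partner of p52 in the non-canonical pathway (chr7:19606217-19629438), had a mean of 1704 and a log2 fold change of 0.15 ± 0.13 (interval -0.10 to 0.41; adjusted p = 0.852, Wald test) in the authors' deposited table. Of the 5 subunits 4 had positive values, with a median log2 fold change of 0.15.

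The classical inhibitors hold dimers in the cytoplasm. Nfkbia encodes IkB-alpha, which NF-kB itself induces and which ends the first wave of the response. Nfkbia (chr12:55489409-55492647) had a mean of 12663 normalized counts and a log2 fold change of -0.10 ± 0.14 (interval -0.38 to 0.18; adjusted p = 0.960, Wald test) in the authors' deposited table. Nfkbib encodes IkB-beta and lies at chr7:28758251-28766644. Its mean was 2277, and its log2 fold change of 0.34 ± 0.14 (interval 0.06 to 0.61) was the one member value whose interval did not hold 0 in the authors' deposited table. It did not pass the threshold after adjustment over all genes (adjusted p = 0.277, Wald test, the authors' deposited table). Nfkbie, which encodes IkB-epsilon (chr17:45555700-45563169), had a mean of 2254 and a log2 fold change of 0.19 ± 0.12 (interval -0.05 to 0.43; adjusted p = 0.699, Wald test) in the authors' deposited table.

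The nuclear IkB proteins work in the nucleus and act on transcription with p50 or p52 dimers. Nfkbiz encodes IkB-zeta, a protein made after TLR stimulation and needed for secondary response genes such as Il6. Nfkbiz (chr16:55811375-55838954) had a mean of 2669 normalized counts and a log2 fold change of -0.41 ± 0.44 (interval -1.27 to 0.45; adjusted p = 0.921, Wald test) in the authors' deposited table. Its log2 fold change was the largest of the family in size, and it was smaller than its own SE. Bcl3 (chr7:19808462-19822824), which encodes a partner of p50 and p52 homodimers, had a mean of 2189 and a log2 fold change of 0.02 ± 0.13 (interval -0.23 to 0.27; adjusted p = 0.999, Wald test) in the authors' deposited table.

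The precision of the 10 values was not alike. The SE of the other 9 genes ran from 0.116 to 0.159 in the authors' deposited table, and that of Nfkbiz was 0.44. Because SE falls with abundance, each SE was set against the 200 tested genes nearest in mean count. Around Nfkbiz those genes had means of 2529 to 2815, a median SE of 0.125, and 0 of the 200 had a larger SE than Nfkbiz. The ratio of the SE to the median of its neighbours was 3.50 for Nfkbiz and 0.957 to 1.25 for the other 9 genes. A ratio of 3.50 or more was found in 96 of the 10778 tested genes (0.891%). At a like mean, a larger SE goes with a larger estimated spread between libraries of the same genotype, without saying in which genotype. Which library carried it cannot be read from the deposited columns, and its cause was not tested.

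Nfkbiz shared this wide spread with inflammatory genes of the pathway, which are named here after their values were seen. Of 90 tested genes on 5 pathway lists, 8 had a ratio at or above that of Nfkbiz: Il1b (10.2), Il1a (9.93), Cxcl3 (5.77), Cxcl2 (5.66), Cd14 (5.34), Cxcl1 (5.33), Il12a (4.09) and Mmp9 (3.69). They are cytokines, neutrophil-attracting chemokines, a matrix protease and the LPS co-receptor CD14, and 7 of the 8 came from the list of 31 tested NF-kB target genes. None of the 8 passed the test (adjusted p of 0.842 to 1.00, the Wald test of the authors' deposited table). Il1b had a log2 fold change of 0.03 ± 1.17 (SE) and Il1a one of 1.46 ± 1.19 in the authors' deposited table. Ptgs2, which encodes cyclooxygenase 2, stood just below Nfkbiz with a ratio of 3.24. For these genes and for Nfkbiz a difference between genotypes was not detectable unless it was large.

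**Figure D2:**
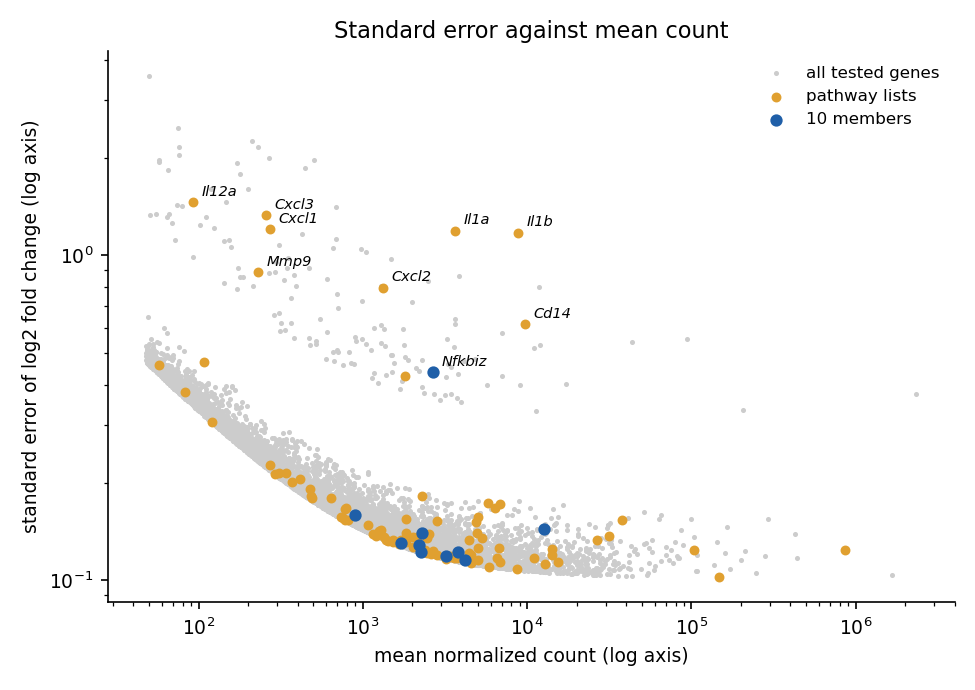
Standard error of the log2 fold change (y axis, log scale) against mean normalized count (x axis, log scale) for all tested genes (grey), the pathway lists (orange) and the 10 NF-kB genes (blue), from the deposited comparison. Of the family, 9 genes lie in the main band and Nfkbiz lies above it, at 3.50 times the median SE of its neighbours, with the 8 named pathway genes higher still.

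The m6A peaks came from WT macrophages and give positions without a level. Of the 10 genes 5 held at least 1 m6A peak (Nfkb1, Rel, Nfkbie, Nfkbiz and Bcl3), 6 peaks in all, where 45.4% of all tested genes held one. Among the 4516 tested genes within the family's range of mean counts the share was 63.7%. No m6A peak was listed in Nfkb2, Rela, Relb, Nfkbia or Nfkbib. An unlisted peak is not evidence of an unmethylated transcript, since the depth behind the calls is unknown.

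In 4 of the 5 genes a peak lay at the upstream border of the 3′ UTR that the deposited annotation lists, or downstream of it. In Nfkb1, Bcl3 and Nfkbie coding sequence was listed up to that border, which was taken as the stop codon. For Nfkbiz no coding segment was listed. The 200-bp peak of Nfkb1 (chr3:135585280-135585479, mm10) reached from 124 bases before that border to 75 bases after it. The 275-bp peak of Bcl3 (chr7:19808737-19809011) reached from 139 bases before to 135 bases after the border. In Nfkbie the peak (chr17:45562125-45563169) spanned 1045 bp, from 58 bases after the border to the end of the gene. So the peaks of Nfkb1 and Bcl3 straddled the stop codon and that of Nfkbie lay in the 3′ UTR.

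Nfkbiz carried 2 m6A peaks. Its 250-bp peak (chr16:55812300-55812549) lay 181 to 430 bases downstream of the upstream edge of the listed 3′ UTR segment, and its 500-bp peak (chr16:55818004-55818503) was centred 75.1% of the way from the gene's 5′ end. The 125-bp peak of Rel (chr11:23742697-23742821) lay 432 to 556 bases upstream of the upstream edge of the listed 3′ UTR segment. It was the only peaked gene of the family without a peak at or beyond such a border. The bases of the m6A peaks were not read, since no genome sequence was used here.

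YTHDF2-bound regions came from the WT immunoprecipitates as 1 list, with the fold enrichment and −log10 q that the authors' peak calling gave each peak. Each peak name in that list starts with "m6a", and nothing in it names the libraries behind it, so its description as YTHDF2 binding rests on the deposited naming. All 10 genes held at least 1 of its peaks, 25 in all, where 64.5% of all tested genes held one and 84.6% of those within the family's range of mean counts. Fold enrichment over the 25 peaks was 1.91 to 4.38 with a median of 2.53, against a median of 3.01 over all 17843 peaks (1.39 to 15.5). The family thus had peaks throughout and most of them were of modest enrichment. The number of peaks per gene was 1 to 6 with a median of 1.5, against a median of 2 over the 6948 tested genes with a peak.

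**Figure D3:**
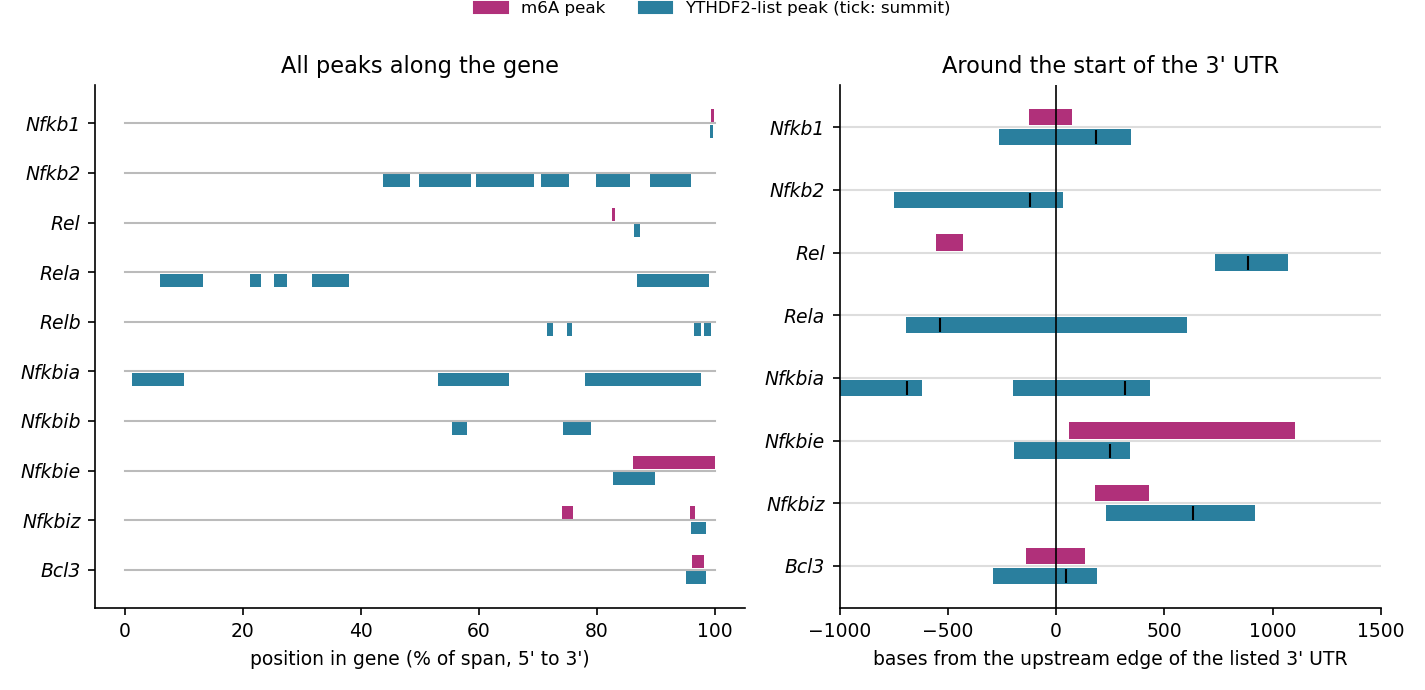
Peaks of the 10 NF-kB genes in the m6A list (magenta) and the YTHDF2 list (blue), on the left along each gene from its 5′ end (0%) to its 3′ end (100%), and on the right in bases from the upstream edge of the listed 3′ UTR for the 8 genes with such an edge, with summits as ticks. The 5 genes with an m6A peak have 1 YTHDF2 peak each, in the 3′ part of the gene, and the 5 genes without one have 2 to 6.

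Among the subunits, Nfkb2 had 6 YTHDF2 peaks, more than 92.2% of the tested genes with a peak, and together they covered 40.8% of the gene. Its most enriched peak, at chr19:46305988-46306497 with the summit in coding sequence, had a fold of 4.38 (−log10 q of 24.0), above 85.9% of all peaks. Its last peak (chr19:46311146-46311927) had a fold of 3.75 with the largest −log10 q of the family, 32.8, and its summit lay 119 bases before the stop codon. The other 4 had summits in introns, with folds of 2.54 to 3.65, and each of these peaks also spanned coding segments. Rela had 5 peaks with folds of 1.91 to 3.15, of which 3 had the summit in coding sequence and 2 in an intron. The peaks with an intron summit also spanned coding segments. The last Rela peak (chr19:5646723-5648019) spanned the stop codon, from 693 bases before it to 603 bases after it. Relb had 4 peaks with folds of 1.92 to 3.48, all with summits in segments listed as coding. The last of those segments ran to the 3′ end of the gene, so no 3′ UTR was listed there.

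Nfkb1 and Rel had 1 peak each. That of Nfkb1 (chr3:135585007-135585617) had a fold of 2.62 and its summit 185 bases into the 3′ UTR, and it held the whole m6A peak of that gene. That of Rel (chr11:23741192-23741533) had a fold of 2.27 and began 1164 bp from the m6A peak, so the marks did not overlap. The summit of Rel lay inside the gene and outside the features listed for it.

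Among the inhibitors, Nfkbia had 3 peaks, at its first coding exon (fold 2.53), in later coding sequence (1.98) and in the 3′ UTR (2.44), which together covered 40.6% of this short gene. Nfkbib had 2 peaks, both with summits in coding sequence and folds of 2.75 and 2.44. Nfkbie had 1 peak (chr17:45561874-45562409) with a fold of 2.63, the summit 251 bases into the 3′ UTR and 285 bp of overlap with the m6A peak. Of the nuclear IkB proteins, Nfkbiz had 1 peak (chr16:55811813-55812498) with a fold of 2.44, which covered 79.6% of its 3′ UTR m6A peak and lay 5506 bp from the other one. Bcl3 had 1 peak (chr7:19808684-19809164) with a fold of 2.44 that held the whole m6A peak, with the summit 44 bases into the 3′ UTR.

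**Figure D4:**
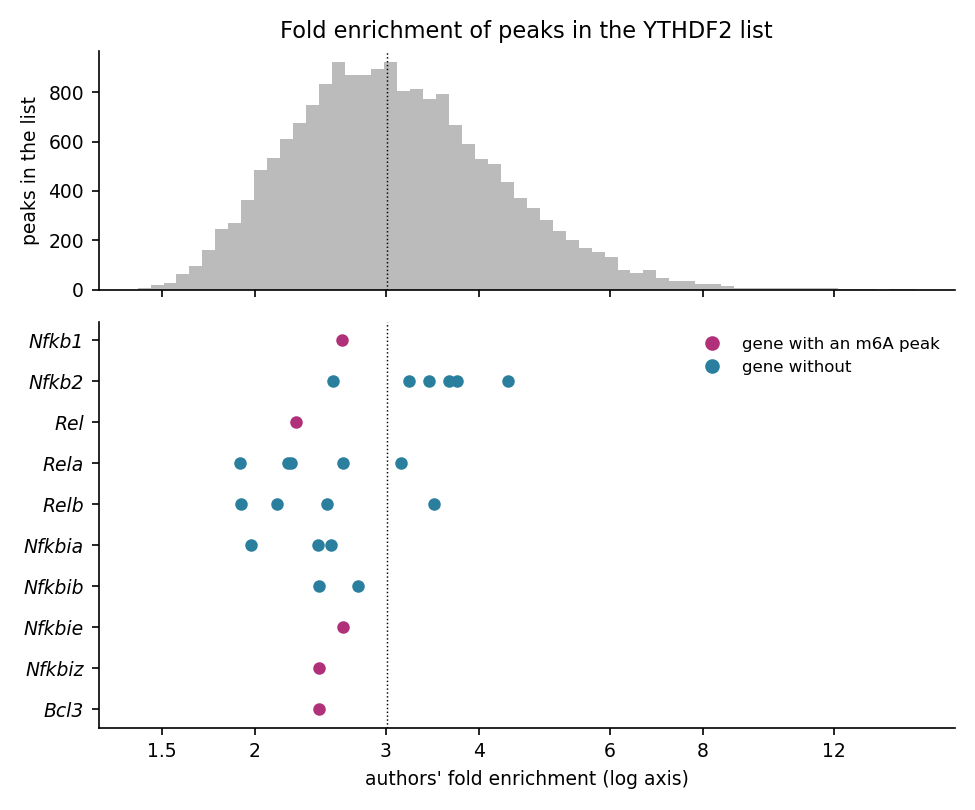
Fold enrichment on a log axis (the authors' values) of all 17843 peaks of the YTHDF2 list as a histogram (top) and of the 25 peaks of the NF-kB genes as points (bottom), in magenta for genes with an m6A peak and blue for genes without one. The dotted line is the median of all peaks, 3.01; most peaks of the family lie below it, and Nfkb2 holds the highest at 4.38.

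An m6A peak overlapped a YTHDF2 peak by at least 1 base in 4 of the 10 genes (Nfkb1, Nfkbie, Nfkbiz and Bcl3), where 26.9% of all tested genes had such an overlap and 43.5% of those within the family's range of mean counts. Taken over the genes with an m6A peak, that was 4 of 5 in the family (80%) and 68.3% in the range. When the YTHDF2 summit had to lie inside the m6A peak, 2 genes were left, Nfkbie and Bcl3.

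The family split by m6A in the number and the place of its YTHDF2 peaks. The 5 genes with an m6A peak had 1 YTHDF2 peak each, all 5 touching the listed 3′ UTR, with folds of 2.27 to 2.63. The 5 genes without an m6A peak had 20 YTHDF2 peaks, 2 to 6 a gene, with folds of 1.91 to 4.38. Of these 20 peaks 3, in Nfkb2, Rela and Nfkbia, touched a listed 3′ UTR. By the listed features 13 of the 20 summits lay in coding sequence, 6 in introns and 1 in the 3′ UTR. Relb gave 4 of the 13, with no 3′ UTR listed for it. Each of the 6 peaks with an intron summit also spanned coding segments, and they came from Nfkb2 (4) and Rela (2) only. The 4 Nfkb2 summits, at 46306927, 46308172, 46309139 and 46310202, lay just before coding segments listed from 46306942, 46308173, 46309155 and 46310208. A Rela summit at 5639849 lay just before one listed from 5639859. These summits are therefore not evidence of binding to introns. The tested genes in the same range of mean counts with a YTHDF2 peak, 2548 with an m6A peak and 1273 without one, matched this split in part. A single YTHDF2 peak was found in 26.6% of those with an m6A peak and in 38.2% of those without, the other way round from the family. A peak touched the 3′ UTR in 86.8% of genes with an m6A peak and in 81.8% without, and 22.7% of summits with and 29.8% without lay in introns, the same way as in the family. The share of summits in the 3′ UTR was 36.5% with and 36.6% without, where the family had 4 of 5 with and 1 of 20 without. In coding sequence the share was 36.7% with and 30.9% without. That was the other way round from the family, which had 0 of 5 with and 13 of 20 without. So the family's split in 3′ UTR and coding summits was not seen in shares pooled over the genes of that range, the family among them. Such shares do not tell whether other small groups of genes split likewise, and Nfkb2 with 6 and Rela with 5 gave most of the 20 peaks. The split is a description of 10 genes and was given no test. By the listed features, 20% of the 25 summits of the family lay in the 3′ UTR and 52% in coding sequence (those of Relb among them). In introns lay 24%, all in Nfkb2 and Rela. Over the whole list the shares were 38.7%, 35.2% and 22.8%.

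None of these genes passed the test between genotypes, neither the 4 with overlapping marks nor the 6 without, where 2.32% of all tested genes passed. With so few genes, 0 calls lie near that share and are no result about overlapping marks. The 4 genes with overlapping marks, Nfkb1, Nfkbie, Nfkbiz and Bcl3, had log2 fold changes of -0.00, 0.19, -0.41 and 0.02 in the authors' deposited table.

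The rest of the pathway was described from 5 lists of 95 genes, 90 of them tested. Of the 90, 5 positive and 2 negative values passed the test, with a median log2 fold change of 0.09, against 1.76% and 0.557% of all tested genes. With values centred on the most abundant 25% of genes the counts were 3 and 2, since Traf1 and Cflar, recomputed so from the authors' deposited table, had Wald adjusted p of 0.0785 and 0.0913.

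Upstream of NF-kB, 12 genes encode the IkB kinase complex, related or upstream kinases, and proteins that bind those kinases. Of these 0 passed and 0 were under an unadjusted 0.05, with a median log2 fold change of 0.04. Tank, an adaptor of TBK1, and Tbk1 itself were the farthest from 0 by Wald statistic, with 0.24 ± 0.12 (SE; adjusted p = 0.507) and 0.19 ± 0.12 (adjusted p = 0.670) in the authors' deposited table. Of 26 tested receptors and adaptors 1 passed and 3 were under an unadjusted 0.05, with a median of 0.06. It was Traf1, an adaptor of TNF receptors, with a log2 fold change of 0.47 ± 0.14 (adjusted p = 0.0371) in the authors' deposited table. These counts lie near the 2.32% called over all tested genes and are no result about the signalling genes.

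Of the 9 other IkB-like and NF-kB regulating genes 0 passed and 0 were under an unadjusted 0.05, with a median of 0.06. Pdlim2, which takes part in the turnover of nuclear p65, had 0.29 ± 0.17 (adjusted p = 0.615) and Commd1, which also takes part in p65 turnover, had -0.22 ± 0.21 (adjusted p = 0.897) in the authors' deposited table. Of 12 feedback inhibitors 0 passed and 3 were under an unadjusted 0.05, with a median of 0.10, where 9.99% of all tested genes were under it. Tnfaip3, which encodes the ubiquitin-editing enzyme A20, had 0.35 ± 0.13 (adjusted p = 0.139) and its partner Tax1bp1 had 0.33 ± 0.12 (adjusted p = 0.156) in the authors' deposited table.

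The calls lay mostly among the target genes, where 6 of 31 tested genes passed, against 2.32% of all tested genes. At a mean of at least 500, 186 positive and 57 negative values of 6463 genes passed. The list was chosen with earlier results of these data known, so its counts are a description and no independent evidence. Of these, 4 had positive values (1.76% of all tested genes) and 2 negative values (0.557%). Under an unadjusted 0.05 were 8 of the 31, against 9.99% of all tested genes. Positive values were 25 of the 31, with a median of 0.24, against 48.7% and a median of -0.01 over all tested genes. The 31 include the 7 target genes with an SE ratio at or above that of Nfkbiz, whose signs are uncertain. On the side of Ythdf2 stood Ccrl2, a receptor that presents chemerin (0.64 ± 0.12, adjusted p = 4e-05 in the authors' deposited table). Plau, the urokinase plasminogen activator, had 0.76 ± 0.18 (adjusted p = 0.0029) and Gadd45b, a stress response gene, had 0.71 ± 0.17 (adjusted p = 0.0036) in the authors' deposited table. Cflar, the inhibitor of caspase 8, had 0.38 ± 0.11 (adjusted p = 0.0374) in the authors' deposited table. On the opposite side stood the acute phase gene Saa3 with -0.49 ± 0.12 (adjusted p = 0.0065) and the early response gene Ier3 with -0.49 ± 0.13 (adjusted p = 0.0083) in the authors' deposited table. Csf2, Il12b, Il23a and Ptx3 were too low to be tested.

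**Figure D5:**
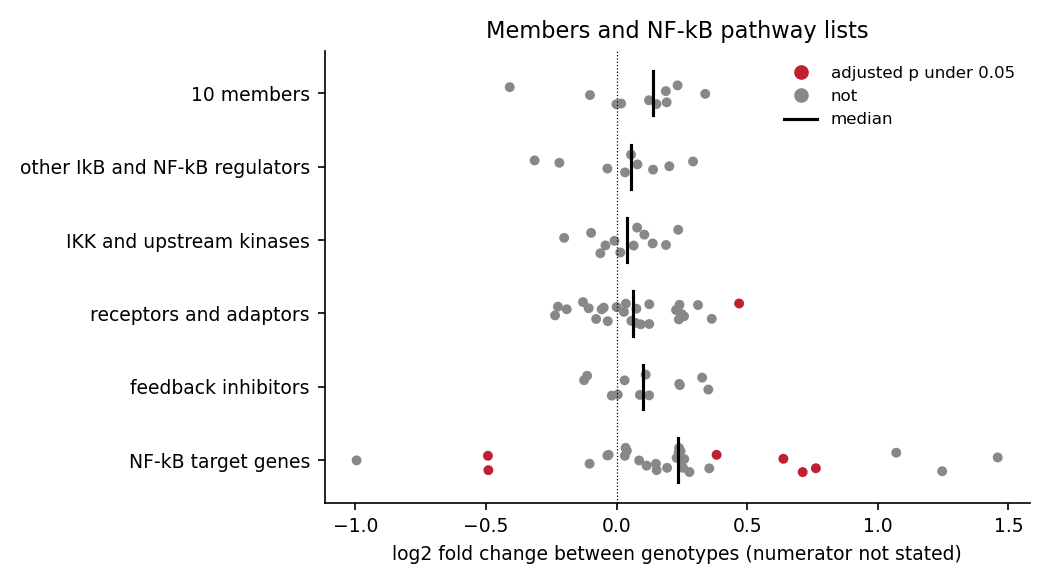
Log2 fold change between genotypes (x axis, positive on the side of Ythdf2) of the 10 NF-kB genes (top line, named members) and of each tested gene on the 5 pathway lists, with vertical bars for the medians and red points for an adjusted p under 0.05. The NF-kB genes have no red point, and 6 of the 7 red points of the pathway lie among the target genes.

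The labelled cell type was checked by marker lists. All 10 macrophage markers were tested in the authors' deposited table, with means as high as 204979 normalized counts for Lyz2, 107430 for Adgre1 and 51468 for Fcgr1, and the M1 genes Acod1, Nos2 and Cxcl10 had means of 88980, 31637 and 10876. In the authors' deposited table the log2 fold change was -1.49 ± 0.33 (SE) for Lyz2, -0.38 ± 0.12 for Adgre1 and 0.15 ± 0.13 for Fcgr1. Lyz2 passed the test between genotypes, and Adgre1 and Fcgr1 did not. Of the 10 macrophage markers 4 had positive and 6 negative values. Of 9 M1 genes 8 were tested, among them Il6 with a mean of only 108, and the untested Il12b had a mean of 19.6. All 8 had positive values, with a median of 0.29, where 48.7% of all tested genes were positive. Under an unadjusted 0.05 were 4 of the 8, against 9.99% of all tested genes. Nos2, Tnf, Il1b and Il6 were also on the list of target genes, and the sign of Il1b is uncertain. Markers of other cells varied. Of the genes listed in the authors' deposited table, 0 of 5 T and NK cell genes (highest Trac, 1.37), 0 of 5 dendritic cell genes (highest Xcr1, 30.1) and 0 of 3 mast cell genes (highest Kit, 10.3) were tested. The B cell and erythroid lists had 1 tested gene each in the authors' deposited table, Cd79b with a mean of 49.0 and a log2 fold change of -0.94 ± 0.48 (SE; adjusted p = 0.499, Wald test) and Car2 with a mean of 50.7 and a log2 fold change of 0.14 ± 0.48 (adjusted p = 0.997). Of 10 neutrophil genes 4 were tested, led by Csf3r with a mean of 8496 and Mmp8 with 987, and of 6 fibroblast genes 4 were tested, led by Col1a2 with 580 in the authors' deposited table. Several of these lists held called genes: the neutrophil list 1 on the opposite side, the fibroblast list 1 and the M1 list 2 on the side of Ythdf2, and the macrophage list 1 with a positive and 2 with negative values. Their part in the values of the NF-kB genes was not tested.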

How the data were processed

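The 12 libraries of M1-type macrophages were deposited as 3 tables, none with values per library, so depth per library is unknown and the 2 replicates of a group were combined before deposit. Per the file headers, the authors' comparison holds a mean normalized count (a signal), a log2 fold change with its SE, a Wald score, and a p-value with an adjusted p-value for each gene. The m6A list gives positions and was named for exomePeak2. The YTHDF2 list gives the authors' fold enrichment ratio and the −log10 q of each peak. HISAT2, HOMER, ChIPseeker and mm10 stand in the submitters' processing notes, with no version or role given.

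The deposited adjusted p-values were recovered by the Benjamini-Hochberg method from the p-values of the 10778 tested genes, whose lowest mean was 48.0. From the deposited values, intervals, peak overlaps and counts were computed with Python 3.11.15, pandas 2.3.3, numpy 2.4.6 and scipy 1.17.1. Only the adjustment of p-values and the centring were tested on simulated data. m6A starts were converted to count from 1. The 45541 lines of the YTHDF2 list were reduced to 17843 peaks. Values were also recomputed without the low-count filter, at a mean of at least 500, after centring on all genes or on the most abundant 25% of genes, and with stricter peak rules. Sequences and gene spans are from RefSeq (GRCm38.p6).

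The genes of the family and the pathway lists were chosen with earlier results of these data known. All 10 were named, and of each pathway list every gene past an adjusted p of 0.05 (at most 6) or, where none passed, the 2 with the largest absolute Wald statistic, and the 3 highest markers of a list. Markers past an adjusted p of 0.05 were named as well.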

Additional observations from a re-analysis of the deposited data

How the results depend on the processing

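No paired analysis was possible because the deposited comparison holds 1 combined value per gene. For the same reason leaving out a library, another normalization of counts and a second count test were not run. The 10 NF-kB genes had 0 calls in the deposited comparison under each alternative tried, and the lowest adjusted p of the family was 0.277 as deposited, 0.669 without the low-count filter, 0.208 at a mean of at least 500, 0.401 after centring on the most abundant 25% of genes and 0.254 after centring on all tested genes. The centre subtracted from each log2 value was 0.04 for the most abundant genes, which turned Bcl3 negative, and -0.01 for all tested genes, which turned Nfkb1 positive. The 7 pathway calls became 5 without the filter and 5 after centring on the most abundant genes. An m6A peak overlapped a YTHDF2 peak in 4 genes of the family, in 3 when at least 50% of the m6A peak had to be covered and in 2 when the YTHDF2 summit had to lie inside it. All 10 genes held a YTHDF2 peak, and 9 did at a −log10 q of at least 10, since the Rel peak did not reach it. Leaving out m6A peaks longer than 1000 bp took away Nfkbie. Depth limits these values in an unknown degree. The wide SE of Nfkbiz limits it most within the family.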
